A study of Mus musculus with 22 samples.

Results

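H3K27ac of Kupffer cells was compared between untreated male BALB/cJ mice and untreated male C57BL/6J mice, with 3 ChIP–seq libraries per strain. Members were all autosomal windows with a mean normalized count over 16, which were 59135 of the 94171 autosomal windows and of the 96381 windows in all. Both strains came from Jackson Laboratories, and the study's mice were 8 to 12 weeks old. Kupffer cells had been sorted as live single cells that were negative for CD146, positive for CD45, high for F4/80 and intermediate for CD11b, after liver digestion in the presence of flavopiridol, an inhibitor of transcription. Neither strain carried an engineered allele. BALB/cJ differs from the reference genome, which is that of C57BL/6J, at many single bases and small insertions or deletions. A further inbred strain, A/J, entered the fit with 3 libraries to share the estimate of spread, and its levels are given at a few windows only. The labels do not say which animal each library came from, so p-values measure the spread between these libraries.

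Kupffer cells are the resident macrophages of the liver and sit in its sinusoids, where they take up microbes, dying cells, iron and lipoproteins from portal blood. Acetylation of lysine 27 on histone H3 is laid down by the coactivators p300 and CBP at promoters and enhancers that are in use. Its level around an accessible site is therefore widely read as a sign of the activity of that element. The elements of macrophages are opened by factors such as PU.1, C/EBP, AP-1 and MAF, and by IRF and NF-κB proteins when the cell is stimulated.

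Each window spans 1000 bp around an accessible site and carries the name of the gene with the nearest transcription start site (TSS), so a name says where a window lies and not which gene it serves. A window was called different when its Benjamini–Hochberg adjusted p was under 0.05 and its absolute log2 fold change was over 1, which is a 2-fold difference. Positive log2 values mean more H3K27ac in BALB/cJ and negative values more in C57BL/6J, and those in parentheses after counts are log2 fold changes from edgeR. Over all chromosomes 8.56% of the windows tested were called, and over the autosomes 8.69%, or 5140 windows. BALB/cJ was higher in 2681 of these (4.53% of the members) and C57BL/6J in 2459 (4.16%). These shares are the background against which every count at a group of genes is to be read. Without C57BL/6J replicate 3, the deepest library of that strain, 3307 windows were called, of which 1828 had more signal in BALB/cJ and 1479 more in C57BL/6J. Most windows differed little, with 69.2% of the members within 0.5 and 89.2% within 1 of no difference on the log2 scale, and a median log2 fold change of -0.01. Called windows had a median log2 fold change of 1.64 where BALB/cJ was higher and of -1.56 where C57BL/6J was higher. Differences of more than 4-fold numbered 905 and 771, and those of more than 8-fold 355 and 348.

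**Figure D1:**
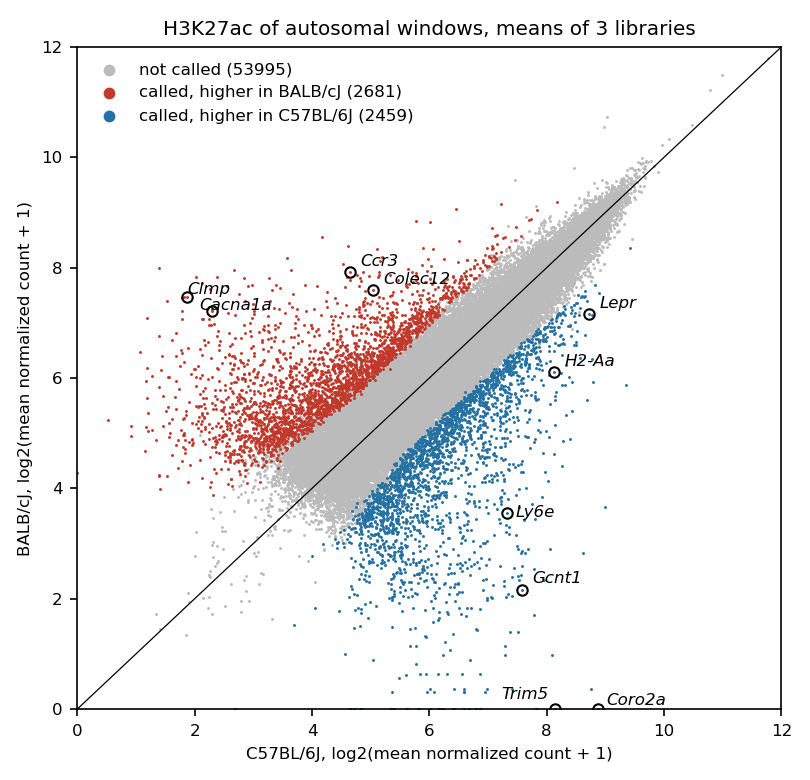
Mean normalized H3K27ac count of 3 libraries per strain in every autosomal window tested, as log2 of the count plus 1, with C57BL/6J on the horizontal and BALB/cJ on the vertical axis. Red and blue points are windows called higher in BALB/cJ (2681) and in C57BL/6J (2459), gray points were not called (53995), and circles mark the named windows, with *Trim5* and *Coro2a* at 0 in BALB/cJ.

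Totals of counts in windows ranged from 2960953 to 10725714 in BALB/cJ and from 2822389.5 to 12980348 in C57BL/6J, and replicate 2 was the shallowest library of both strains. Markers of cell types were read at the window nearest each TSS. Windows lie only at sites accessible in Kupffer cells, and some were far from their marker, as at *Cps1* (236927 bp) and *Alb* (-45707 bp). Sums over markers also cover different numbers of genes, so they do not measure the purity of the sort. All 10 Kupffer cell markers had a window, and their summed normalized count was 1266 to 1420.1 in BALB/cJ and 1329.5 to 1919 in C57BL/6J, with overlap. Sums were lower for markers of sinusoidal endothelial cells (139 to 219.7 in BALB/cJ and 100.1 to 147 in C57BL/6J, 9 of 12 markers), hepatocytes (61.8 to 86.1 and 60.5 to 73.3, 6 of 12) and stellate cells (12.4 to 20.6 and 4 to 14, 5 of 12). Dendritic cell markers summed to 494 to 539 in BALB/cJ and 461 to 614 in C57BL/6J (12 of 12), and B cell markers to 159.6 to 218 and 139 to 214 (6 of 10). Only the T and NK cell sum and the monocyte and neutrophil sum did not overlap between the strains, the first at 121 to 158 in BALB/cJ and 64.2 to 79.2 in C57BL/6J (6 of 12), the second at 154 to 195 and 219 to 266 (9 of 12). *Cd3d* made up most of the difference in the first (means of 65.0 and 27.9) and *Plac8* in the second (9.46 and 80.9). In bulk cells, fewer cells of a type and less acetylation per cell cannot be told apart.

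The central 200 bases of the windows, around the accessible site, are shown for genes that carried large differences. AP-1 letters, TGANTCA, bound by JUN and FOS dimers, stood in the central 200 bases of 17.6% of the 2412 windows higher in BALB/cJ outside promoters, 14.3% of the 2266 higher in C57BL/6J and 13.3% of the 42234 not called. Letters of the interferon-stimulated response element (ISRE), GAAANNGAA, the core bound by IRF and STAT complexes, stood in 7.55%, 13.3% and 10.2%. Both strands were searched, letters of different motifs may overlap, and the shares are a description without a test. The median GC content of these bases was 49%, 47.5% and 48.5%. The windows printed are each gene's window of lowest p and were chosen after their matches were seen. They are reference bases, which are those of C57BL/6J, so BALB/cJ bases may differ. Capitals mark AP-1 letters in the first 3, which were higher in BALB/cJ, and ISRE letters in the last 2, which were higher in C57BL/6J. All are on the plus strand of GRCm38, with 2 AP-1 matches at *Ccr3* and 2 overlapping ISRE matches on the minus strand at *Ptprm*. They are *Ccr3* chr9:124023112-124023311, *Arg2* chr12:79132217-79132416, *Ifnar1* chr16:91475852-91476051, *Cd52* chr4:134094053-134094252 and *Ptprm* chr17:67260077-67260276.
Ccr3: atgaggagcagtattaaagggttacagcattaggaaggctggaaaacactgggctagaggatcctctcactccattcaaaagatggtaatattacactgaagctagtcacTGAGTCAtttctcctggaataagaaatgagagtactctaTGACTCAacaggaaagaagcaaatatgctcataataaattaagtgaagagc
Arg2: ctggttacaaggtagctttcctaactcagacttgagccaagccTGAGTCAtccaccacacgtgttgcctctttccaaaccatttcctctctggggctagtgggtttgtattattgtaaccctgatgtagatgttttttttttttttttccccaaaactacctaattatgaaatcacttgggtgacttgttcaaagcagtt
Ifnar1: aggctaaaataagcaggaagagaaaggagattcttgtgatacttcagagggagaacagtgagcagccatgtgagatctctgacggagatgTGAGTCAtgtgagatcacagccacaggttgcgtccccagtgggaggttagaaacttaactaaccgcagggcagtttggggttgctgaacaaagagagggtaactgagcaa
Cd52: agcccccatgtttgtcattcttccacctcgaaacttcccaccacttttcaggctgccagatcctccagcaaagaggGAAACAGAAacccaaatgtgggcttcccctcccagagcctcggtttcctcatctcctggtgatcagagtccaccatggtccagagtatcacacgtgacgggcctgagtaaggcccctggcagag
Ptprm: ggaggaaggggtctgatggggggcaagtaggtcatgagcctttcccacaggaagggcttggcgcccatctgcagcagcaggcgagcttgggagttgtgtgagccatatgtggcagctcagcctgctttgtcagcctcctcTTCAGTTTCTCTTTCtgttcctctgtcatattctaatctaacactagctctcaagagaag

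The other motifs were searched in the same windows outside promoters. Letters of the cyclic AMP response element, TGACGTCA, bound by CREB and ATF factors, stood in 1.12% of the windows higher in BALB/cJ, 0.353% of those higher in C57BL/6J and 0.516% of those not called. NF-κB letters, GGGANTTTC, stood in 0.912%, 1.72% and 1.26%. The MAF site letters TGCTGAC were found in 7.26%, 6.27% and 5.86%, and PU.1 letters, GAGGAAGT, in 7.67%, 8.83% and 9.26%. C/EBP letters, TTGCNNAA, were found in 11.9%, 12.3% and 12.1%, NFIL3 letters, TTANGTAA, in 2.36%, 3.13% and 2.26%, and the E-box of MITF and TFE factors, TCACGTGA, in 0.415%, 0.309% and 0.353%. The letters ATTGG and AGCAACAG, of the CCAAT box and X box treated below, stood in 19.8%, 22.6% and 20.6% and in 2.53%, 1.81% and 1.86%.

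Promoters of MHC class II genes are shown because this family had the largest share of called windows among the gene lists described below other than those of cell type markers. Their regulatory module is known to end in a Y box that holds a CCAAT box and is bound by NF-Y beside the factors that recruit CIITA. The RefSeq table of GRCm38.p6 gives 300 bases per start, 250 before and 50 after, and the letters ATTGG, searched on both strands, stood in 37.4% of its 32851 promoters. Among the class II chains and editors they stood in the promoters of *H2-Aa*, *H2-Eb1*, *H2-Eb2*, *H2-Oa*, *H2-Ob*, *H2-DMb1* and *H2-DMb2* and in 1 of 2 for *H2-DMa*. X box letters of the same module, AGCAACAG, were also searched. They stood in none of these class II promoters, against 2.26% of all promoters. Capitals mark these letters in the promoters of an alpha chain, a beta chain and a peptide editor, each printed 5′ to 3′ on the strand of its gene. They are *H2-Aa* on the minus strand (chr17:34287774-34288073), and *H2-Eb1* (chr17:34305617-34305916) and *H2-DMb1* (chr17:34152941-34153240) on the plus strand.
H2-Aa: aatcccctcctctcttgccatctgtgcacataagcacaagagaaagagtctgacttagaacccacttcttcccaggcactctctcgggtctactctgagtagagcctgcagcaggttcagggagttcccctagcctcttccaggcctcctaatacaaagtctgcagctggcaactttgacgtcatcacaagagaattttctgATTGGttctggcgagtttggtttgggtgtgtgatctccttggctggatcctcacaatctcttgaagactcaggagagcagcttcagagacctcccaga
H2-Eb1: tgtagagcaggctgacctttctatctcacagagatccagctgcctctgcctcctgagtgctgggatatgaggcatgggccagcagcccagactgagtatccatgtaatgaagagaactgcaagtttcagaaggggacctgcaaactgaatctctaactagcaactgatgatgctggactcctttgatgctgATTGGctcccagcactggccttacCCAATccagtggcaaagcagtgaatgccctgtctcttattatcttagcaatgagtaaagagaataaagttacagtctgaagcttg
H2-DMb1: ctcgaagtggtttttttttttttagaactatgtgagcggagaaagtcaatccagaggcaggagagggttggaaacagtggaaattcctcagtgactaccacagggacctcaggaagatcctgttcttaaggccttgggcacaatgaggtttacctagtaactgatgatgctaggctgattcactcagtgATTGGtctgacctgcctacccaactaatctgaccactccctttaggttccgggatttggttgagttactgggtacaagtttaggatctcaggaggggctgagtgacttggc

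Called windows of MHC class II genes mostly carried less H3K27ac in BALB/cJ than in C57BL/6J. The list had 16 genes with 96 tested windows, of which 38 at 11 genes were higher in C57BL/6J (39.6%, against 4.16% of all members) and 3 windows at 1 gene were higher in BALB/cJ. The median log2 fold change was -0.81, against -0.01 over all members, and 7 of 20 promoter windows were called higher in C57BL/6J. Without C57BL/6J replicate 3 the count of 38 was 22, and without it or without BALB/cJ replicate 3 the count of 3 was 1. Dendritic cells and B cells also present antigen on class II, and the sums of their markers, given above, overlapped between the strains. The monocyte and neutrophil sum was higher in C57BL/6J without overlap (154 to 195 in BALB/cJ and 219 to 266 in C57BL/6J). The part of these cells in the class II differences was not tested.

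At the alpha and beta chains, a window in intron 2 of 5 of *H2-Eb1* (chr17:34311942-34312942) had normalized counts of 26.2, 27.5 and 9.49 in BALB/cJ replicates 1 to 3 and of 74.6, 90.8 and 92.6 in C57BL/6J. All 3 BALB/cJ libraries lay below all C57BL/6J libraries, and the log2 difference of BALB/cJ from C57BL/6J came to -2.13 (standard error 0.33, adjusted p = 5.23e-05). Its promoter window at -942 bp had 157, 87.0 and 81.8 against 329, 196 and 388 (-1.48, adjusted p = 0.000438). *H2-Eb1* had 10 of 14 windows called and *H2-Aa* 5 of 6, while *H2-Ab1*, the other beta chain, had 3 of 8, with its promoter not called at -0.86 (adjusted p = 0.0174).

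Genes that handle the chains or drive the family also had calls in the same direction, though *Ifi30*, *Rfx5*, *Rfxap* and *Rfxank* had none. *Cd74*, which encodes the invariant chain that guards the peptide groove, had 5 of 10 windows called. A window in its intron 1 of 8 had 92.0, 109.9 and 86.2 in BALB/cJ against 326, 239.8 and 493 in C57BL/6J (-1.91, standard error 0.26, adjusted p = 1.09e-05). The groups did not overlap there, whereas in the window at 92 bp before the TSS they did, at 137, 146 and 118 against 195, 121 and 232 (-0.49, adjusted p = 0.252). *H2-Ob*, a subunit of the editor H2-O that restrains peptide exchange, had 3 of 3 windows with more signal in C57BL/6J and *H2-Oa*, its partner, 3 of 5. *Ciita*, the coactivator that drives this family, had 4 of 11 windows called, all higher in C57BL/6J. Its window at -129 bp had 22, 18.3 and 21.9 in BALB/cJ and 41.3, 48.9 and 48.5 in C57BL/6J, without overlap (-1.12, adjusted p = 0.0178), a call that ended without replicate 3 of either strain or BALB/cJ replicate 1 (adjusted p of 0.0948, 0.0661 and 0.0565 without C57BL/6J replicate 3, BALB/cJ replicate 3 and BALB/cJ replicate 1).

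The 3 class II windows higher in BALB/cJ all carried the name *H2-Ea-ps*, and 1 of them, at -534 bp, was not called by DESeq2 (adjusted p = 0.0581). This is the E alpha chain gene, which is known to be inactive in C57BL/6 because its promoter is deleted. Its window at -1691 bp had 60.8, 13.7 and 59.1 in BALB/cJ and 13.3, 6.99 and 5.04 in C57BL/6J, with BALB/cJ replicate 2 just above the highest C57BL/6J library (2.61, standard error 0.43, adjusted p = 0.000162). In A/J the mean of that window was 327 ± 14.7 (SD, n = 3). Pooled input counts over this window were 25.5 in BALB/cJ and 5 in C57BL/6J, which are not at equal depth. The 3 BALB/cJ input libraries held 888201, 716354 and 1145764.5 counts in all windows and the single C57BL/6J one 583517.5. Windows were placed on the reference genome, which is that of C57BL/6J, so their bases are present in that strain. The part of the promoter deletion in this difference was not tested.

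Of 67 windows of MHC class I and peptide processing genes, 4 were higher in C57BL/6J (5.97%) and 0 in BALB/cJ by edgeR, where 4 had an unadjusted p under 0.05. DESeq2 gave the same counts, and with the replicate number as a block they were 8 and 2. *H2-K1*, a class I heavy chain gene, had 23.6, 4.58 and 13.9 in BALB/cJ and 73.3, 58.2 and 50.4 in C57BL/6J at -966 bp (-1.93, adjusted p = 0.0011), without overlap. Reads of these near-identical genes may be split or lost in mapping, and the 2 strains carry different haplotypes of the MHC. Without C57BL/6J replicate 2 the count of 4 was 7, and without replicate 2 of either strain 1 window was called higher in BALB/cJ.

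Called windows were unevenly spread over the genome. At promoter windows 3.78% passed the call (269 toward BALB/cJ and 193 toward C57BL/6J of 12223), against 9.23% of 26568 intronic and 11.8% of 16260 intergenic windows. By distance from the TSS the share was 3.98% under 1 kb, 8.83% from 1 to 10 kb, 11.8% from 10 to 50 kb and 12.1% beyond 50 kb. At 1 to 10 kb, 803 windows were higher in C57BL/6J and 605 in BALB/cJ, whereas beyond 50 kb the counts were 390 and 580. Windows of accessible sites found after lipopolysaccharide alone, a bacterial ligand of TLR4, were higher in C57BL/6J in 234 of 3864 and in BALB/cJ in 125, although these cells were untreated. By chromosome the share called ran from 5.65% on chromosome 16 to 11.5% on chromosome 17, which holds the MHC. Chromosome 9 had the most uneven split, with 205 windows on the side of BALB/cJ and 109 on that of C57BL/6J. None of these shares was tested against another.

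**Figure D2:**
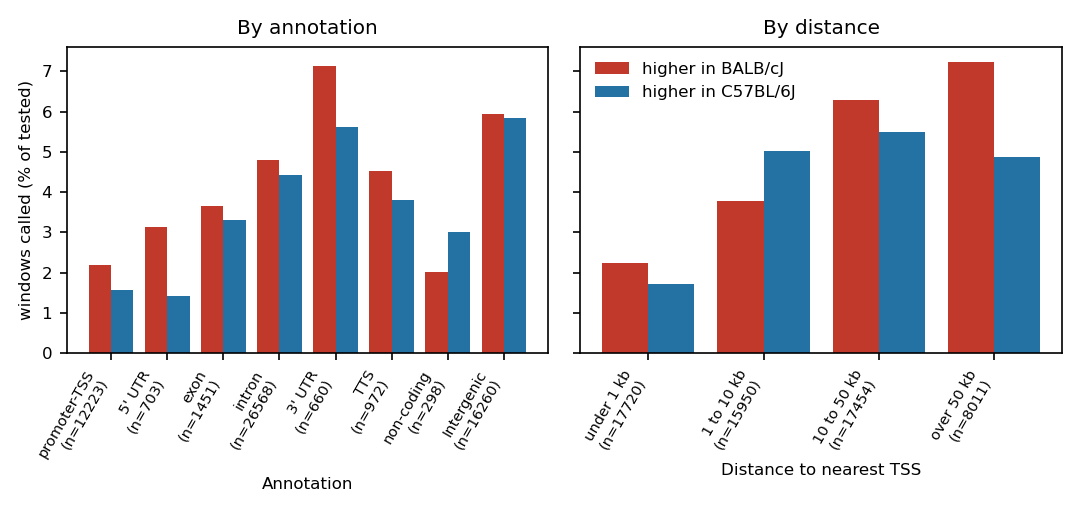
Share of the tested autosomal windows called higher in BALB/cJ (red) and in C57BL/6J (blue), in percent, by annotation class on the left and by distance to the nearest TSS on the right, with the number of windows in brackets. Together the bars reach 3.78% at promoters and 11.8% between genes, and 3.98% under 1 kb and 12.1% beyond 50 kb.

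Of 12885 genes with a tested window, 2511 had at least 1 called window, which was higher in BALB/cJ alone at 1207 genes, higher in C57BL/6J alone at 1165 and both ways at 139. Called windows of the same direction were then grouped. Joined where their midpoints were at most 20 kb apart, with no called window of the other direction between, 3419 called windows (66.5%) fell into 598 regions with more signal in BALB/cJ and 557 with more in C57BL/6J. Of these, 71 and 64 held at least 5 windows. Since 37.8% of the members overlapped the window before them, neighboring windows are not independent.

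The region with the most windows higher in BALB/cJ lay in *Tgfbr2*, which encodes the type II receptor for TGF-β, a cytokine that shapes Kupffer cell identity. It spanned 87.8 kb (chr9:116085128-116172976), with 18 of 33 windows called. A window in intron 1 of 6, 18631 bp from the TSS (chr9:116156232-116157232), had 178, 119 and 193 in BALB/cJ and 14.7, 27.9 and 18.9 in C57BL/6J. The lowest BALB/cJ library was more than 4-fold above the highest C57BL/6J library, and the difference on the log2 scale was 3.08 (standard error 0.32, adjusted p = 1.73e-07). Neither of its 2 promoter windows was called, and at the one nearest the TSS the libraries overlapped, with 714, 620.3 and 1038 in BALB/cJ and 550.3, 605 and 743 in C57BL/6J (0.32, adjusted p = 0.495). With C57BL/6J replicate 3 left out the gene had 12 called windows in place of 18.

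The next region ran from *Clmp*, an adhesion molecule gene, to *Hspa8*, which encodes a heat shock chaperone, over 63.3 kb, with 16 of 18 windows called and a median log2 fold change of 3.64. The window at 46601 bp in intron 1 of 6 of *Clmp* (chr9:40732065-40733065) had 161, 124 and 117 in BALB/cJ and 2.66, 4.66 and 0 in C57BL/6J, without overlap (6.37, standard error 0.50, adjusted p = 1.89e-09). The gene had 11 of 13 windows higher in BALB/cJ, and 1, upstream at -47388 bp, was higher in C57BL/6J (-1.13, adjusted p = 0.0489), though not by DESeq2 (adjusted p = 0.0586). *Tspan13*, a tetraspanin gene, was called in 12 of 12 windows including its promoter, which had 169.7, 139.6 and 180.4 in BALB/cJ against 32.0, 27.9 and 29.6 in C57BL/6J (2.45, standard error 0.27, adjusted p = 3.17e-07). *Cacna1a*, a calcium channel gene, was called in 8 of 8 windows of its region, with a median of 5.95, and its promoter had 221, 172 and 134 against 2.66, 4.66 and 0.63.

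*Arg2*, a mitochondrial arginase gene, had 7 windows higher in BALB/cJ from its promoter to 7307 bp inside. The one in intron 2 of 7 whose center is printed above had 265, 201 and 264 against 41.3, 55.9 and 56.7, more than 3-fold apart at the closest (2.25, standard error 0.28, adjusted p = 2.09e-06).

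Higher in C57BL/6J, 16 of 18 windows were called over 16.6 kb nearest to *Ly6e*, which encodes a surface protein induced by interferon. The one at -20769 bp (chr15:74933782-74934782) had 7.60, 9.16 and 15.3 in BALB/cJ and 156, 128 and 192 in C57BL/6J, more than 8-fold apart at the closest (-3.83, standard error 0.35, adjusted p = 1.67e-08). No window of the region lay at the gene itself, where a single further window, in an exon, was called at -1.04. *Gsr*, which encodes glutathione reductase, was called in 13 of 13 windows, from its promoter to 21416 bp inside. Its promoter had 76.0, 121 and 129 in BALB/cJ and 384, 354 and 472 in C57BL/6J (-1.91, adjusted p = 3.14e-06), and a window in intron 1 of 12 at 8092 bp had 11.0, 13.7 and 10.2 against 91.9, 135 and 115 (-3.33, adjusted p = 5.04e-08).

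The MHC class II region around *H2-Aa* and *H2-Eb1* held 15 called of 20 windows over 29 kb. Between *Cd5l*, whose secreted product protects macrophages from apoptosis, and *Fcrl1*, 14 of 29 were called over 51.3 kb. The *Cd5l* window at -28446 bp had 16, 9.16 and 14.6 in BALB/cJ and 131, 158 and 159 in C57BL/6J, without overlap (-3.39, standard error 0.32, adjusted p = 3.51e-08). Its promoter was not called, at -0.84. The count of 11 called windows at *Cd5l* was 6 without BALB/cJ replicate 3 and 7 without C57BL/6J replicate 3. *Ptprm*, a receptor phosphatase gene, had 12 of 38 windows higher in C57BL/6J, 7 without C57BL/6J replicate 3, and *Sgms1*, a sphingomyelin synthase gene, had 13 of 22 higher in BALB/cJ, also 7 without it.

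**Figure D3:**
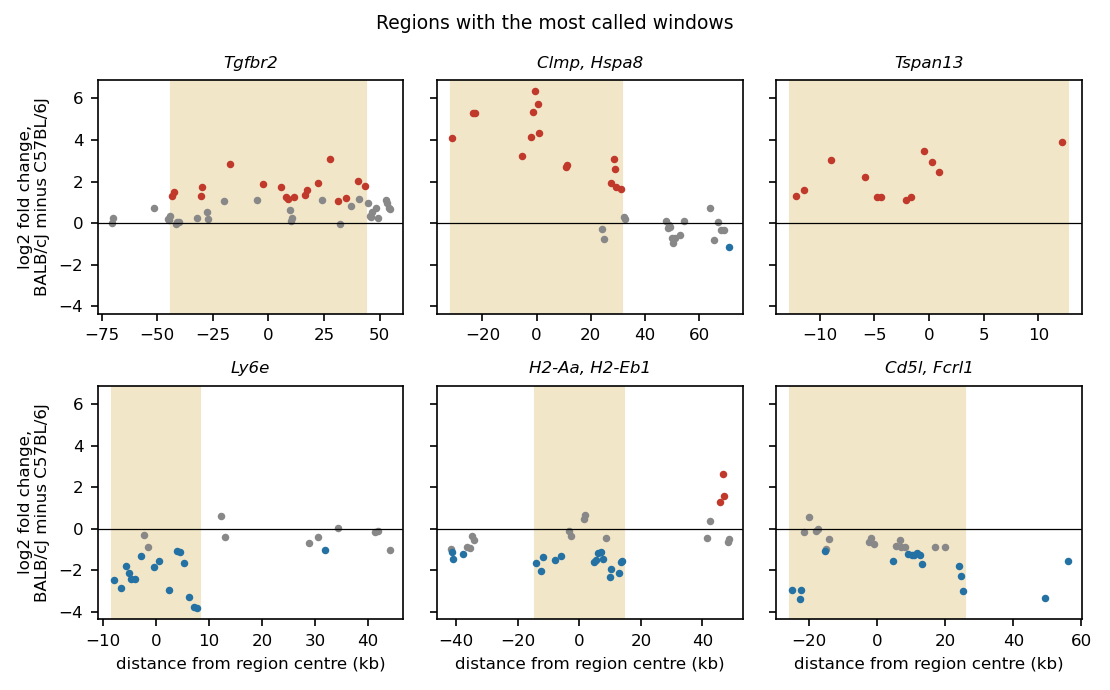
Log2 fold change of H3K27ac, BALB/cJ minus C57BL/6J, of the tested windows in and within 40 kb of the 3 regions with the most called windows in each direction, against the distance in kb from the center of the region (shaded). Red points are calls with more acetylation in BALB/cJ, blue points calls with more in C57BL/6J and gray points no call, and called windows lie up to 6.37 at *Clmp* and down to -3.83 at *Ly6e*.

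Promoters that differed were not alone. Of 229 genes with a promoter called higher in BALB/cJ, 153 had other windows, and 264 of those 805 windows (32.8%) were called in the same direction and 20 in the opposite one. For the 164 genes with a promoter higher in C57BL/6J, 149 of 475 other windows (31.4%) were called in the same direction and 12 in the opposite one. Among the promoters with the largest differences, that of *Atp6v0e2*, a proton pump subunit gene, had 43.1, 59.5 and 60.6 in BALB/cJ and 4.00, 6.99 and 1.26 in C57BL/6J, without overlap (4.10, adjusted p = 9.08e-07). *Klra3*, an NK cell receptor gene of a large family with similar members, had 69.2, 57.2 and 102 against 2.66, 4.66 and 6.30 at its promoter (3.94, adjusted p = 1.94e-07), where the T and NK cell sum given above also lay higher in BALB/cJ. Its part in this difference was not tested.

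**Figure D4:**
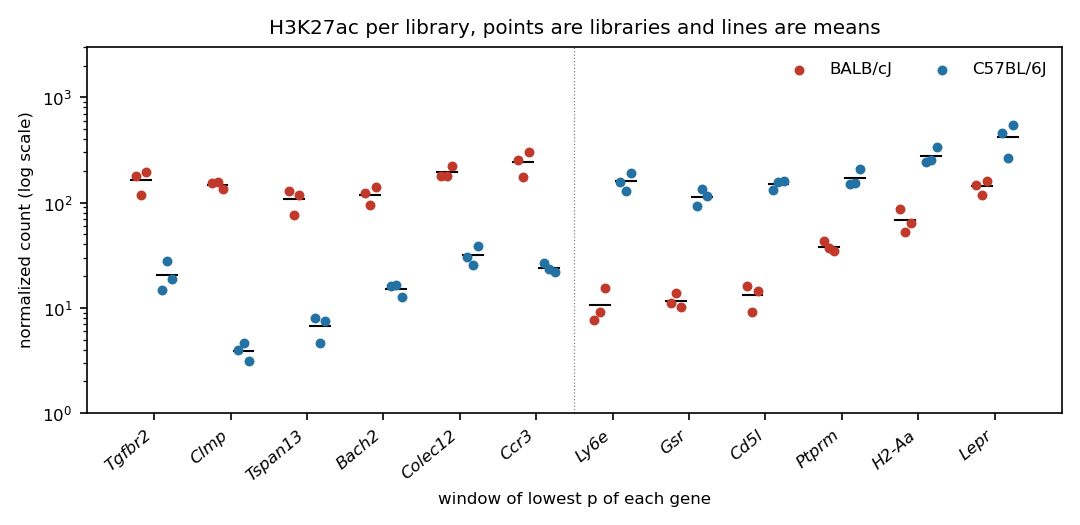
Normalized H3K27ac count on a log scale in each library (points) and the mean of 3 libraries (lines) for the window of lowest p of 12 genes, with BALB/cJ in red and C57BL/6J in blue. The strains do not overlap at any of these windows, the first 6 being higher in BALB/cJ (*Tgfbr2* at 119 to 193 against 14.7 to 27.9) and the last 6 higher in C57BL/6J (*Ly6e* at 128 to 192 against 7.60 to 15.3).

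Receptors that sense microbes had calls both ways, with 23 of 260 windows higher in C57BL/6J (8.85%) and 10 higher in BALB/cJ (3.85%), and a median of -0.14. These counts were lower without C57BL/6J replicate 3 (14 and 4) or BALB/cJ replicate 3 (15 and 6), and that of 10 was 6 without replicate 1 of either strain. *Nod1*, which encodes a cytosolic sensor of peptidoglycan, had 5 of 23 windows higher in C57BL/6J, with a median of -0.19. The clearest, in intron 1 of 11, had 49.0, 29.8 and 38.7 in BALB/cJ and 276, 298 and 388 in C57BL/6J (-2.99, standard error 0.25, adjusted p = 5.47e-09), without overlap. *Cd180* and *Ly86*, whose products form a complex related to TLR4 and MD-2, had 4 of 20 and 5 of 35 windows higher in C57BL/6J. Their medians were -0.58 and -0.19. The windows of lowest p lay -34923 and 192139 bp from the TSS. Log2 fold changes there were -4.49 (adjusted p = 1.89e-09) and -4.99 (adjusted p = 4.65e-07), and *Ly86* also had 1 window higher in BALB/cJ.

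*Tlr4* and *Cd14*, which together detect lipopolysaccharide, lay on the other side. Of 15 *Tlr4* windows, 3 were higher in BALB/cJ, the clearest at its 3′ end with 85.3, 91.6 and 80.3 against 34.6, 21.0 and 36.5 (1.40, adjusted p = 0.000972). At its promoter the libraries overlapped (204, 183 and 235 against 191, 221 and 290.3, adjusted p = 0.726). *Cd14* had 3 of 9 windows higher in BALB/cJ, 10843 to 13712 bp away, all of them calls that ended without C57BL/6J replicate 3, and at its promoter the log2 fold change was 0.04. Downstream, the MyD88 and NF-κB signaling genes had 7 of 282 windows higher in C57BL/6J (2.48%) and 3 higher in BALB/cJ (1.06%), both under the background. Of the 3, none was left by edgeR without BALB/cJ replicate 3 or C57BL/6J replicate 3, and 1 without BALB/cJ replicate 1, and with the replicate block there were 5. *Tbk1*, a kinase upstream of IRF3, had 1 of 9 windows higher in C57BL/6J, with a median of -0.19. That window, at -4476 bp, had 38.0, 41.2 and 28.5 in BALB/cJ and 197, 149 and 263 in C57BL/6J (-2.55, adjusted p = 2.75e-07).

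Interferon-stimulated genes had 23 of 230 windows at 13 genes higher in C57BL/6J (10.0%) and 11 at 6 genes higher in BALB/cJ (4.78%), with a median of -0.29. Without C57BL/6J replicate 3 the first count was 12, and without BALB/cJ replicate 3 the second was 7. *Zbp1*, which encodes a sensor of Z-form nucleic acids, was called in 4 of 4 windows, and its promoter had 125, 146 and 164 in BALB/cJ and 322, 207 and 396 in C57BL/6J (-1.11, standard error 0.24, adjusted p = 0.00238), a call that ended without C57BL/6J replicate 3, at -0.88. At *Bst2*, which encodes the virus-tethering protein tetherin, 2 windows, 8600 and 9366 bp from the TSS, were higher in C57BL/6J. The nearer had 5.07, 4.58 and 2.19 against 50.6, 53.6 and 44.7 (-3.68, adjusted p = 1.35e-06), while the libraries at its promoter overlapped (353, 259 and 440.3 against 339.8, 242 and 532).

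In the opposite direction, *Rsad2*, which encodes the antiviral enzyme viperin, had 5 of 14 windows higher in BALB/cJ. Its window at 17542 bp had 108, 139.6 and 124 against 7.99, 9.31 and 8.19 (3.86, standard error 0.31, adjusted p = 2.56e-09), more than 10-fold apart. *Ifi203*, of a gene family with similar copies, had 2 windows called each way.

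Interferon receptors and IRF factors are described by gene. *Ifnar1*, a type I interferon receptor chain, had 2 of 6 windows higher in BALB/cJ, with a median of 0.08 over the 6. The clearer of the 2 had 270.2, 146 and 191 in BALB/cJ and 9.33, 4.66 and 5.67 in C57BL/6J in the window printed above (chr16:91475452-91476452), more than 15-fold apart at the closest (4.94, standard error 0.39, adjusted p = 1.7e-09). *Irf1*, an interferon-induced factor gene, had 5 of 24 windows higher in C57BL/6J, while its promoter window at -90 bp had 337, 288 and 267 against 251, 296 and 271.

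Inflammatory cytokines and their receptors had 24 of 296 windows higher in C57BL/6J (8.11%) and 5 higher in BALB/cJ (1.69%). Leaving out C57BL/6J replicate 3 made these 12 and 4. *Il10*, an anti-inflammatory cytokine gene, had 6 of 10 windows higher in C57BL/6J. The window at -1235 bp had 70.1, 66.4 and 65.0 in BALB/cJ and 167, 130.4 and 142 in C57BL/6J (-1.13, standard error 0.25, adjusted p = 0.00329), without overlap. *Cd40*, the receptor through which T cells activate antigen-presenting cells, had 5 of 7, the clearest in intron 1 of 7 with 71.8, 38.9 and 54.8 against 203, 130.4 and 238 (-1.76, adjusted p = 0.000471). *Il4ra*, the receptor chain for IL-4 and IL-13, had 44.7, 50.4 and 47.5 against 175, 133 and 170 (-1.76, adjusted p = 7.96e-06). *Il1b* was called in BALB/cJ alone, in 2 of 11 windows.

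Chemokine receptor genes stood at the opposite end, with 21 of 121 windows at 5 genes higher in BALB/cJ (17.4%, against 4.53% of all members) and 0 higher in C57BL/6J by edgeR, DESeq2 or with the replicate block. At an unadjusted p under 0.05, 8 windows were higher in C57BL/6J. *Ccr3*, the eotaxin receptor gene, had 251, 176 and 299 in BALB/cJ and 26.6, 23.3 and 22 in C57BL/6J in intron 1 of 1 (chr9:124022712-124023712), where the AP-1 letters printed above stand. The log2 fold change was 3.36 (standard error 0.29, adjusted p = 9.17e-09), and the promoter also differed, at 130, 101 and 130 against 29.3, 55.9 and 18.9 (1.97, adjusted p = 8.25e-05).

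*Cxcr4*, the receptor for CXCL12, had 9 of 16 windows higher in BALB/cJ. The promoter window at -154 bp had 87.0, 87.0 and 83.2 against 24, 21.0 and 28.3, without overlap (1.76, standard error 0.30, adjusted p = 0.000211), and a window at -155214 bp had 64.2, 64.1 and 62.8 against 2.66, 4.66 and 1.89. *Cx3cr1*, the fractalkine receptor, was called in 5 of 7 windows, the promoter at -14 bp among them (78.5, 66.4 and 51.1 against 13.3, 11.6 and 18.9, adjusted p = 0.000176). *Ccr1* and *Ccrl2*, a receptor for inflammatory chemokines and an atypical receptor, had 1 each. These receptors are also used by monocytes and lymphocytes, whose marker sums differed between the strains in opposite directions as given above, and their part in these differences was not tested.

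Chemokine genes had 15 of 121 windows higher in BALB/cJ (12.4%) and 1, at *Ccl2*, higher in C57BL/6J, with a median of 0.26. Of the 15, 9 lay at *Cxcl1*, a neutrophil attractant with 10 tested windows, and its promoter had 138, 45.8 and 128 in BALB/cJ and 22.7, 27.9 and 13.2 in C57BL/6J (2.47, standard error 0.41, adjusted p = 0.000199), with BALB/cJ replicate 2 the nearest to the other strain. *Ccl6*, *Cxcl13*, *Ccl3* and *Ccl24* had 2, 2, 1 and 1, all under 3-fold. The *Ccl3* call (1.07) ended with the replicate block and without BALB/cJ replicate 2, C57BL/6J replicate 1 or C57BL/6J replicate 3, and the *Ccl24* call ended with relative log expression size factors and without BALB/cJ replicate 2, BALB/cJ replicate 3 or C57BL/6J replicate 1. The *Ccl2* call ended without replicate 1 of either strain or without BALB/cJ replicate 3.

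The list of JUN, FOS, ATF, BATF and CREB genes, not all of which encode factors that bind AP-1 letters, had 11 of 249 windows higher in BALB/cJ. This share, 4.42%, was near the background of 4.53%, and 2 of the 11 lay at *Creb1*. Higher in C57BL/6J were 0 by edgeR or DESeq2, and the median was 0.05. The 11 were 7 without BALB/cJ replicate 3 or C57BL/6J replicate 1, and without either of these or replicate 2 of either strain 1 window was called higher in C57BL/6J. At an unadjusted p under 0.05, 25 windows were higher in BALB/cJ and 14 in C57BL/6J. *Jun*, an AP-1 subunit gene, had 4 of 23, the clearest at -163150 bp with 135, 96.1 and 157 against 68.0, 41.9 and 59.2 (1.19, adjusted p = 0.00317).

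The MAF list had 16 of 143 windows higher in BALB/cJ (11.2%) and 0 in C57BL/6J by edgeR or DESeq2, against 1 with the replicate block and 7 at an unadjusted p under 0.05. Of the 16, 12 belonged to *Bach2*, a repressor that competes for MAF sites. All lay between -178808 and -53754 bp of its TSS. The clearest (chr4:32358827-32359827) had 123, 93.9 and 141 against 16, 16.3 and 12.6, without overlap (3.06, standard error 0.30, adjusted p = 6.33e-08). *Maf* itself, a lineage factor of resident macrophages, had 3 of 35 windows higher in BALB/cJ. At its promoter the libraries overlapped, with 82.7, 158 and 101 against 99.9, 168 and 115.

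Lineage factors of Kupffer cells and macrophages had shares under the background, with 13 of 476 windows higher in BALB/cJ (2.73%) and 6 in C57BL/6J (1.26%). The 13 were 8 without BALB/cJ replicate 1 or 3, and the 6 were 10 without C57BL/6J replicate 2 and 11 with the replicate block. *Bhlhe41*, a repressor that keeps macrophages self-renewing, was the exception, called in 3 of 3 windows. Its window at -771 bp had 452, 343 and 590 in BALB/cJ and 61.3, 23.3 and 75.6 in C57BL/6J, more than 4-fold apart at the closest (3.01, standard error 0.32, adjusted p = 4.77e-07). *Nr1h3*, which encodes LXRα, had 174, 160.2 and 132 against 217, 198 and 187 at its TSS (-0.37, adjusted p = 0.346). Of its 4 tested windows 1 was called higher in C57BL/6J, and their log2 fold changes ranged from -1.41 to 0.15.

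Surface and secreted genes of Kupffer cells were called both ways, 24 of 354 windows higher in C57BL/6J (6.78%) and 16 higher in BALB/cJ (4.52%). *Marco*, a scavenger receptor for bacteria, had 7 of 11 windows higher in C57BL/6J. One of these (chr1:120532720-120533720) had 58.3, 45.8 and 52.6 in BALB/cJ and 132, 107 and 119.7 in C57BL/6J, without overlap (-1.18, standard error 0.24, adjusted p = 0.00117). *Clec4f*, a C-type lectin found on Kupffer cells alone in mice, had 3 of 26 windows higher in BALB/cJ, with a median of 0.25. The one at -4448 bp had 85.3, 124 and 161 against 17.3, 9.31 and 1.26 (4.00, adjusted p = 1.14e-05), while at -89 bp the means were 146 and 114. *Cadm1*, an adhesion gene, had 7 of 27 higher in BALB/cJ, with a median of 0.45. Its window in intron 1 of 8 had 159, 130.5 and 153 against 12, 2.33 and 6.93 (4.27, adjusted p = 1.48e-09). *Timd4*, which encodes the phosphatidylserine receptor TIM-4, had 2 windows higher in BALB/cJ but 1 higher in C57BL/6J.

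Among the LXR targets and genes of sterol and fatty acid synthesis, 8 of 216 windows were higher in BALB/cJ (3.70%) and 0 in C57BL/6J by edgeR or DESeq2, against 9 and 3 with the replicate block, and 10 were higher in C57BL/6J at an unadjusted p under 0.05. The 8 belonged to *Fads1*, *Mylip* and *Npc1*, a fatty acid desaturase, the ligase that degrades the LDL receptor and a cholesterol transporter. *Fads1* had 4 of 6, its promoter at 62.5, 105 and 59.1 against 32.0, 37.3 and 29.0 (1.18, standard error 0.32, adjusted p = 0.0151), and this call ended without BALB/cJ replicate 2 (adjusted p = 0.069), C57BL/6J replicate 1 (0.0574) or C57BL/6J replicate 3 (0.113). Without C57BL/6J replicate 3 the count of 8 was 2, and without BALB/cJ replicate 1 it was 5. Calls higher in C57BL/6J numbered 4 without C57BL/6J replicate 2 and 2 without BALB/cJ replicate 1. *Abcg1*, a cholesterol exporter and LXR target, was not called, at 82.7, 77.8 and 73.8 against 38.6, 34.9 and 44.1 (0.96, adjusted p = 0.032).

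Genes of lipid-associated macrophages split, with 16 of 214 windows higher in BALB/cJ (7.48%) and 11 in C57BL/6J (5.14%). *Cd63*, a lysosomal tetraspanin gene, had 82.7, 71.0 and 91.3 in BALB/cJ and 9.33, 0 and 6.93 in C57BL/6J at its promoter (3.68, standard error 0.45, adjusted p = 1.69e-06), without overlap. *Soat1*, which esterifies cholesterol for storage, had 6 of 18 and *Lgals3*, which encodes galectin-3, 5 of 18 higher in BALB/cJ, the latter with 1 in the opposite direction. *Lpl*, the lipoprotein lipase gene, had 4 of 11 higher in C57BL/6J, and *Tyrobp*, the adaptor of TREM2, had 1 of 6, with a median of -0.35. That *Tyrobp* window, at -20566 bp, had 55.7, 54.9 and 34.3 against 208, 237 and 245 (-2.28, adjusted p = 9.92e-07). *Trem2* itself had no called window. The 11 were 5 or 6 without C57BL/6J replicate 1, C57BL/6J replicate 3 or BALB/cJ replicate 3.

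Notch, BMP and TGF-β signaling genes, whose ligands come from the sinusoidal niche, had 29 of 279 windows higher in BALB/cJ (10.4%) and 3 in C57BL/6J. Of the 29, 18 lay at *Tgfbr2*, and the count of 29 was 12 without C57BL/6J replicate 3 and 19 without BALB/cJ replicate 1. The count of 3 was 1 without C57BL/6J replicate 3. *Bmp2*, a ligand made by endothelial cells, had 51.5, 45.8 and 29.2 in BALB/cJ and 20.0, 4.66 and 13.2 in C57BL/6J (1.62, adjusted p = 0.0167), a call that ended without BALB/cJ replicate 1 (adjusted p = 0.107) or C57BL/6J replicate 3 (0.0994). The sum of endothelial markers given above, of which *Bmp2* is one, was higher in 2 of the 3 BALB/cJ libraries than in any of C57BL/6J, and its part was not tested. Of the 9 endothelial markers, 8 had the higher mean in BALB/cJ, among them *Pecam1* (53.0 against 43.7), *Dnase1l3* (36.4 against 28.6) and *Lyve1* (13.4 against 9.51), while *Stab2* had means of 3.99 and 5.77 in a window at -8639 bp. *Dtx4*, a regulator of Notch, was called both ways, 3 windows being higher in BALB/cJ while 1 was higher in C57BL/6J (-3.12, adjusted p = 2.57e-05).

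Scavenger and efferocytosis receptors had 18 of 354 windows higher in BALB/cJ (5.08%), 12 of them at *Colec12*, and 6 higher in C57BL/6J (1.69%). *Colec12*, a collectin that binds microbes and oxidized lipoprotein, was called in 12 of 13 windows, its promoter at -28 bp with 134, 96.1 and 236 against 25.3, 11.6 and 17.6 (3.07, standard error 0.34, adjusted p = 4.17e-07), without overlap. The 6 were 0 by edgeR without BALB/cJ replicate 3 and 3 without C57BL/6J replicate 1 or 2.

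Wound healing and fibrosis mediators had 11 of 186 windows higher in BALB/cJ (5.91%) and 5 in C57BL/6J (2.69%). The 11 were 6 without replicate 1 of either strain, and the 5 were 2 without C57BL/6J replicate 3 and 9 without C57BL/6J replicate 2. *Mmp12*, the macrophage elastase gene, had 91.2, 108 and 94.9 in BALB/cJ and 36.0, 37.3 and 33.4 in C57BL/6J at its promoter, without overlap (1.46, standard error 0.28, adjusted p = 0.000667). *Igf1*, a growth factor of repair macrophages, had 5.07, 4.58 and 2.92 in BALB/cJ and 56.0, 62.9 and 51.0 in C57BL/6J at -161563 bp (-3.75, adjusted p = 6.11e-06), the only call among its 25 windows.

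Leptin receptor, JAK, STAT3, STAT5 and SOCS genes had 7 of 184 windows higher in C57BL/6J (3.80%) and 4 higher in BALB/cJ (2.17%). The 7 were 4 without C57BL/6J replicate 3, and the 4 were 1 without it and 2 without BALB/cJ replicate 1, BALB/cJ replicate 3 or C57BL/6J replicate 1. *Lepr*, the leptin receptor gene, had 2 of 9 windows higher in C57BL/6J. The median of the 9 was 0.09, and they ranged from -1.57 to 1.13. The clearer of the 2, in intron 4 of 18, had 148, 119 and 161 in BALB/cJ and 458, 265 and 546 in C57BL/6J, without overlap (-1.57, standard error 0.25, adjusted p = 8.41e-05). At the *Lepr* TSS the libraries overlapped (31.2, 50.4 and 68.6 against 9.33, 62.9 and 23.3). *Ptpn6*, which encodes the phosphatase SHP-1, had 1 of 8 windows higher in C57BL/6J, with a log2 fold change of -2.10. The median of the 8 was -0.19. *Cish*, a feedback inhibitor, had 2 of 4 windows higher in C57BL/6J, and the 4 ranged from -2.30 to -0.88.

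The remaining lists stayed near or under the background. Complement and Fc receptor genes had 6 of 123 windows higher in C57BL/6J and 1 higher in BALB/cJ, but the 6 were 2 without replicate 3 of either strain, 3 without replicate 1 of either and 12 without BALB/cJ replicate 2, and the 1 was 2 without replicate 3 of either and 3 without C57BL/6J replicate 2. Lysosome and autophagy genes had 7 of 263 and 4, and iron and heme genes 2 of 153 and 3. The 4 lysosome windows were 2 without replicate 3 of either strain or C57BL/6J replicate 2, the 3 iron windows were 0 by edgeR without replicate 3 of either strain and 1 without BALB/cJ replicate 1, and the 2 were 1 without C57BL/6J replicate 3 or BALB/cJ replicate 1.

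**Figure D5:**
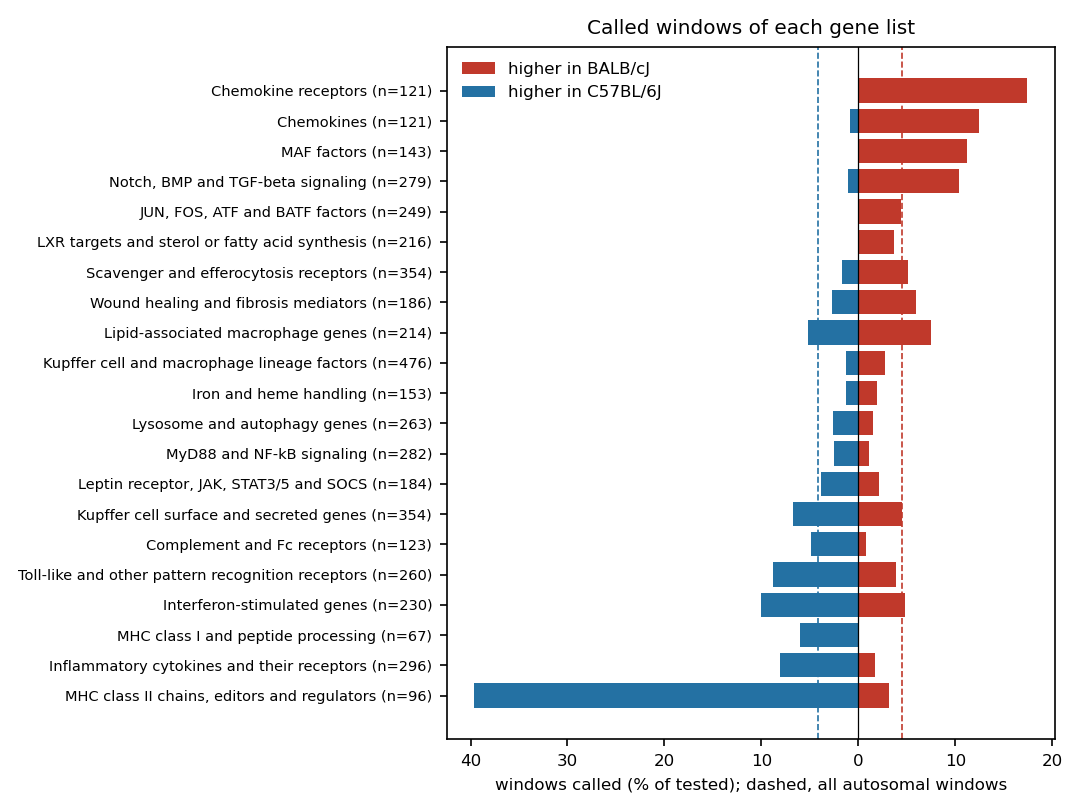
Share of the tested windows of 21 gene lists called higher in BALB/cJ (red, to the right) and in C57BL/6J (blue, to the left), in percent, with the number of windows in brackets. Dashed lines mark all autosomal windows (4.53% and 4.16%), and MHC class II genes reach 39.6% on the left and chemokine receptors 17.4% on the right.

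Windows of the cell type markers were called as follows. Kupffer cell markers had 21 of 143 windows higher in C57BL/6J (14.7%), 13 without BALB/cJ replicate 3, and 5 higher in BALB/cJ (3.5%). Of the 21, 11 lay at *Cd5l* and 7 at *Marco*, while the 5 were 3 at *Clec4f* and 2 at *Timd4*. Monocyte and neutrophil markers had 12 of 40 higher in C57BL/6J (30%) and 2 higher in BALB/cJ (5%). The 2 were 4 without C57BL/6J replicate 2 and 0 by edgeR without any of the other libraries except BALB/cJ replicate 1. Endothelial markers had 2 of 41 higher in BALB/cJ (4.88%), dendritic cell markers 2 of 31 (6.45%) and T and NK cell markers 1 of 12 (8.33%). B cell markers had 2 of 25 higher in C57BL/6J (8%) and stellate cell markers 1 of 1. By edgeR the 2 endothelial calls were 0 without BALB/cJ replicate 1 or C57BL/6J replicate 3 and 4 without C57BL/6J replicate 1, and 2 windows were called higher in C57BL/6J without C57BL/6J replicate 2. The T and NK cell call was lost without replicate 1 or 3 of either strain, and the 2 B cell calls were 0 by edgeR without replicate 3 of either strain and 1 without replicate 1 of either. Without BALB/cJ replicate 2, 1 dendritic cell window was called higher in C57BL/6J. Of 10 hepatocyte marker windows none was called by edgeR or DESeq2. *Plac8*, expressed in monocytes and other leukocytes, was higher in C57BL/6J in 10 of 20 windows, its promoter at 12.7, 9.16 and 6.57 in BALB/cJ and 93.3, 51.2 and 98.2 in C57BL/6J (-3.13, standard error 0.37, adjusted p = 1.07e-06), without overlap. The promoter of *S100a8*, a neutrophil and monocyte gene, went the other way (27, 59.5 and 43.1 against 13.3, 27.9 and 8.82, adjusted p = 0.0271), with BALB/cJ replicate 1 below C57BL/6J replicate 2, and the call ended without BALB/cJ replicate 2 (adjusted p = 0.0836), BALB/cJ replicate 3 (0.105), C57BL/6J replicate 1 (0.104) or C57BL/6J replicate 3 (0.247).

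Of the genes that the study discusses, which were chosen on these samples, 25 had 306 tested windows. Of these, 32 at 9 genes were higher in BALB/cJ (10.5%) and 31 at 12 genes higher in C57BL/6J (10.1%). *Adam17*, the sheddase of TNF and its receptors, had 77.7, 96.1 and 70.8 in BALB/cJ and 369, 293 and 476 in C57BL/6J in intron 1 of 18 (-2.26, standard error 0.23, adjusted p = 1.4e-07), more than 3-fold apart at the closest. *Mefv*, which encodes pyrin, had a promoter at 29.5, 59.5 and 46.7 against 128, 149 and 125 (-1.61, adjusted p = 0.00193), but was not called by DESeq2 (adjusted p = 0.139). *Cd300e*, a myeloid receptor gene, was higher in BALB/cJ at -13539 bp (2.35, adjusted p = 0.000123) and higher in C57BL/6J at its promoter (adjusted p = 0.0223), a call at the edge of the 2-fold limit that ended with the replicate block (-0.99). *Ccl5*, *Atf5* and *Ch25h* had no called window, nor did *Trem2*.

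At a few windows a strain had almost no signal. A mean of at most 2 in 1 strain and at least 50 in the other was found at 51 windows low in BALB/cJ and 14 low in C57BL/6J. ChIP input, the sonicated chromatin before immunoprecipitation, moved with these differences. Over the 51 windows BALB/cJ had 27.4% of the C57BL/6J input at equal depth, and 22 had no input count in BALB/cJ, while over the other windows called higher in C57BL/6J it had 94.3%. Over the 14 windows low in C57BL/6J that strain had 67.2% of the BALB/cJ input, against 89.3% at the other windows higher in BALB/cJ. The authors' BALB/cJ genome carried single-base changes and small insertions and deletions but no larger structural variants, and at the 22 windows without BALB/cJ input a missing sequence and a missing mark cannot be told apart. The other 29 of the 51 windows had input counts in BALB/cJ, and all 14 windows low in C57BL/6J had input counts in that strain. The 22 windows were left in all counts, and without every window lacking input in a strain 5035 windows were called, 2636 and 2399 by direction.

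*Nlrp1b*, an inflammasome sensor gene in a cluster of similar copies, had a promoter without a single BALB/cJ count and 70.6, 74.5 and 77.5 in C57BL/6J, at least 74.0-fold higher against a floor of 3 counts over the BALB/cJ group. The BALB/cJ input held 0 counts there where 25.9 would follow from C57BL/6J. *Pnp2*, which encodes a purine nucleoside phosphorylase and has a close neighbor of similar sequence, had none in BALB/cJ and 73.3, 44.2 and 72.4 in C57BL/6J, at least 63.1-fold higher, with an input of 0 where 9.43 would follow. A pair of windows named *Hfe2*, -35474 and -35966 bp from its TSS, had at most 0.844 in BALB/cJ and 109 to 215 in C57BL/6J, with no BALB/cJ input count in either, while the 5 *Hfe2* windows at -25537 to -23602 bp were higher in C57BL/6J, with log2 fold changes of -2.01 to -1.38 and input present in both strains.

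Large differences also stood where input was present in both strains and the lower strain had signal. Among windows with a mean of at least 8 in the lower strain, *Ada*, the adenosine deaminase gene, had 209, 211 and 248 in BALB/cJ and 10.7, 4.66 and 10.7 in C57BL/6J (4.53, standard error 0.35, adjusted p = 1.4e-09). *Jaml*, a junctional adhesion gene of leukocytes, had 183, 211 and 196 against 4.00, 14 and 12 (4.28, adjusted p = 6.57e-10). *Cd52*, which encodes a small surface glycoprotein of leukocytes, had 9.29, 20.6 and 6.57 in BALB/cJ and 164, 196 and 285 in C57BL/6J in intron 1 of 1, around the ISRE letters printed above (-4.39, standard error 0.36, adjusted p = 3.8e-09). At all 3 the strains lay more than 7-fold apart at the closest libraries.

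The threshold on level left out 35036 autosomal windows, and the lowest mean kept was 16.001, while the highest left out was 16 after rounding.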

How the data were processed

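H3K27ac ChIP–seq of Kupffer cells was compared between BALB/cJ and C57BL/6J (3 libraries each), with 3 A/J libraries in the fit. Per the paper's methods, the authors mapped reads with Bowtie2 to mm10 or to a strain genome made from it, shifted them to mm10 with MMARGE and counted tags with HOMER in 1000-bp windows around merged ATAC–seq peaks. The deposited values of replicates 1 and 3 were raw counts. Those of replicate 2 and of the input libraries were deposited in steps of 0.5 and were treated as estimated counts, that is, expected counts, and rounded. There were 3 input libraries of BALB/cJ and 1 shallow one of C57BL/6J (583517.5 counts).

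Counts were scaled by TMM and fitted with edgeR 4.0.16 (R 4.3.3, robust quasi-likelihood) over all 60387 windows with a mean normalized count over 16, with Benjamini–Hochberg adjustment over all of them, and autosomal windows were described. Each standard error was taken as the size of the log2 difference divided by the square root of its F. Same-numbered BALB/cJ and C57BL/6J libraries deviated together from their strain means (correlations of 0.263, 0.355 and 0.302), so the numbers were taken as pairs in a fit with a replicate block. Other alternatives were DESeq2 1.42.0, other size factors, level filters, 6 libraries only, non-overlapping windows, windows with input, and each library left out. The fit was tested on simulated data.

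Named windows were the promoters and other windows with the largest differences above a minimum level, the window of lowest p of each listed gene, and, for detail, windows of genes leading the regions. Members, lists and detail genes were chosen with earlier results of these data known. Motifs were searched in GRCm38.p6, the same build. The totals of the libraries limit the precision of low windows, and intervals and floors cover counting error only. A few items withheld from this text are not reported here.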

Additional observations from a re-analysis of the deposited data

How the results depend on the processing

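Called windows over the autosomes (5140, with 2681 higher in BALB/cJ and 2459 in C57BL/6J) numbered 4794 by DESeq2, 5132 with other size factors, 4807 without TMM, 5238 with 6 libraries, 3841 over non-overlapping windows and 6290 with no filter on level. With a mean over 32 they were 3260 (1649 and 1611), by construction over fewer windows. With single libraries left out they ranged from 3307 to 5663 in all, from 1828 to 2896 higher in BALB/cJ and from 1479 to 2767 higher in C57BL/6J. With the replicate block, from the pairing of the libraries, they were 6235 (3332 and 2903), and of 176 named windows 2 lost and 2 gained a call. Of the named windows, 4 lost their call in DESeq2 and 20 without C57BL/6J replicate 3. The cause was not tested.

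Windows near 0 that changed sign were none of them called. *Ccl5* (-0.03) was 0.00 by DESeq2 and 0.01 without TMM. With a library left out *Ccl5* ranged from -0.34 to 0.15, *Tnfaip3* (-0.13) from -0.37 to 0.15, *Maf* (-0.18) from -0.45 to 0.03, *Ch25h* (0.23) from -0.08 to 0.47 and *Junb* (0.05) from -0.08 to 0.24. Depth limits windows just above the filter, and replicate 2 of each strain holds the fewest counts.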
